A study of Rattus norvegicus with 9 samples.

Results

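The genes described here are those of cholesterol and fatty acid metabolism in microglia, the resident macrophages of the retina, sorted from diabetic and control rats. They were chosen by symbol as a list of 36 genes that covers sterol synthesis, the SREBP and LXR transcription factors, sterol efflux and fatty acid synthesis. Of the 36 symbols, 35 had a row in the deposited table of 28343 genes, and 34 had enough counts to be tested among 11748 genes. Scd had no row under that symbol. RefSeq gives Scd1 as an older symbol of Scd, and the row of Scd1 held 0 to 21 counts per library, too few for the test. Elovl6, an elongase of saturated fatty acids, had 1 count in control 1, 1 count in control 5 and 0 in the other 7 libraries, so no fold was computed.

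All animals were Dark Agouti rats, an inbred strain. The 4 diabetic libraries (numbered 1, 2, 4 and 5) came from rats injected with 55 mg/kg streptozotocin, which destroys the insulin-producing cells of the pancreas, at 8 to 10 weeks of age. The 5 control libraries (numbered 1, 3, 4, 5 and 6) came from rats injected with citrate buffer, and both injections followed a 12-hour fast. Retinas were collected 4 weeks later. Diabetic rats received 2 units of insulin at readings above 30 mmol/l. Retinas were digested with papain and cells positive for CD11b were sorted, a gate that also admits blood-derived and border macrophages. The labels give the number of samples per group but not whether a library pooled animals, so p-values measure the spread between these libraries.

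Animal cells make cholesterol from acetyl-CoA through the mevalonate pathway. When sterols in the endoplasmic reticulum run low, SCAP escorts the membrane-bound precursors of SREBP-1 and SREBP-2 to the Golgi, where they are cut and released as transcription factors. INSIG proteins hold SCAP back when sterols are plentiful. SREBP-2 mainly drives sterol synthesis and uptake, and SREBP-1c mainly drives fatty acid synthesis. The liver X receptors (LXRs) sense oxysterols and drive cholesterol efflux. Microglia need this balance because they take up lipid from dying cells and synapses.

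SREBPs act weakly alone and often work beside NF-Y, which binds the CCAAT box. The promoters of 5 genes whose values carry the results below are shown as the 250 bases before the start of transcription, from RefSeq on build GRCr8, with the CCAAT box (CCAAT or its complement ATTGG) and the E-box (CACGTG, its own complement) in capitals. Hmgcs1, Idi1 and Insig1 are the genes that spread most between control libraries, and Nsdhl and Scd2 are genes lower in diabetic libraries. Hmgcs1 lies at chr2:53382054-53382303 on the plus strand, Idi1 at chr17:66547525-66547774 on the minus strand, Insig1 at chr4:8057770-8058019 on the minus strand, Nsdhl at chrX:155817110-155817359 on the plus strand and Scd2 at chr1:253118127-253118376 on the plus strand.
Hmgcs1: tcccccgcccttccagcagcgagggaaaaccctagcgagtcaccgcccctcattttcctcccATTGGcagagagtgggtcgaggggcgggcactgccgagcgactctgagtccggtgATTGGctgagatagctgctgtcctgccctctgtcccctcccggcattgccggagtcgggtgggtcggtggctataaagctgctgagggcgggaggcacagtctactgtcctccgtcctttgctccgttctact
Idi1: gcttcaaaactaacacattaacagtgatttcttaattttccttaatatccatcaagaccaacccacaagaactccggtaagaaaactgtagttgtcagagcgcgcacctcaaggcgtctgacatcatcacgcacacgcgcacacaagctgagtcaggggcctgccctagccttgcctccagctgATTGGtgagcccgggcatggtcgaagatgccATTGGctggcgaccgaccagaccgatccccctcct
Insig1: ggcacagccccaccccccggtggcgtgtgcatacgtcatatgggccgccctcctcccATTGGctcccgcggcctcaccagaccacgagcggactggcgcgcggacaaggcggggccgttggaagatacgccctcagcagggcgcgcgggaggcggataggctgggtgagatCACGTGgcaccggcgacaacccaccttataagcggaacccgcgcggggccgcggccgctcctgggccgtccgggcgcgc
Nsdhl: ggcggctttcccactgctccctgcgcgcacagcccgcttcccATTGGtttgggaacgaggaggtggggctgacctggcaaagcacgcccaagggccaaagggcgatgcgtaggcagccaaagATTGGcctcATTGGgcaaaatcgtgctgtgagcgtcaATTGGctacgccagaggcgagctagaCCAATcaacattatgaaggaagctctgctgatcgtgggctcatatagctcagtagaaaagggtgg
Scd2: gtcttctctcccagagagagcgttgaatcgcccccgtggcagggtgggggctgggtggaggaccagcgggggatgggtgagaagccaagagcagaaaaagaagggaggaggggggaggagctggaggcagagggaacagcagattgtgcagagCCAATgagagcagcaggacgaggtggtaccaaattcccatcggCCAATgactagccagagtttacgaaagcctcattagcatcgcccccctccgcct

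The Nsdhl window holds 5 CCAAT boxes, those of Hmgcs1, Idi1 and Scd2 hold 2 each, and that of Insig1 holds 1 together with an E-box. RefSeq held promoters for 29 of the 36 genes. In 19 of these 29 genes (65.5%) the window held a CCAAT box on either strand, against 34.0% of all 33469 promoter windows of the same length. An E-box was present in 6 of the 29 genes (20.7%), against 5.59% of all windows. The shares differ in unit. Plin2 and Srebf1 have several windows and were counted once if any of them held the motif, while the share of all promoters is per window. The core of the classical sterol regulatory element, searched as TCACNCCAC on both strands, was found in 0 of the 29 genes and in 0.974% of all windows. This search took exact matches only and cannot show that the element is absent. The Srebf2 window, for example, holds TCACCCCAT, which differs only in its last letter and was not counted. In no window of these genes did matches of different motifs overlap. These counts describe letters in a short window and not sites in use.

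Total counts ranged from 9156591 to 11332823 in control and from 6228756 to 9629829 in diabetic libraries. Defining microglial genes were abundant, with Cx3cr1 at 1669 to 2539.8 CPM and Csf1r at 9529.5 to 12116 CPM over the 9 libraries, where CPM is the count scaled by the TMM-adjusted library size, in the usual unit of that name. Siglech was listed at 0 in every library. Controls 4 and 6 stood apart on lists of cell state, which were chosen with earlier results of these data known. A list of 14 immediate-early and stress genes that respond to cell isolation summed to 23090.4 CPM in control 4 and 31857 CPM in control 6, against 3880 to 8887 CPM in controls 1, 3 and 5 and 11563 to 18163 CPM in diabetic libraries. A list of 10 inflammatory genes summed to 12057 CPM and 23118 CPM in controls 4 and 6, to 727 to 1740.04 CPM in the other 3 controls and to 1531 to 3888 CPM in diabetic libraries. Values without these 2 libraries are therefore given beside the results. That fit does not even out the cell isolation list, since controls 1, 3 and 5 all lay below every diabetic library on its sum. Group and cell isolation level cannot be told apart there. All 8 tested genes of the blood and border myeloid list were higher in diabetic libraries, 6 of them at an unadjusted p below 0.05, and the list summed to 1863 to 2530 CPM in control and 2014 to 3587 CPM in diabetic libraries, most of it from Lyz2. Ccr2 of that list was at 0 in every library. Of the 10 Muller glia and astrocyte genes, 7 were lower and 3 had an unadjusted p below 0.05, with sums of 12476 to 17463 CPM in control and 12155 to 13995 CPM in diabetic libraries, most of it from Apoe, which microglia also express. All 9 tested photoreceptor genes were higher, 0 of them at an unadjusted p below 0.05, with sums of 235 to 1267 CPM in control and 362 to 1792 CPM in diabetic libraries. Of 11 tested inner retinal neuron genes 8 were higher and 5 had an unadjusted p below 0.05, with sums of 76.8 to 167 and 106 to 314 CPM. Among them the bipolar cell genes Pcp2, Isl1, Trpm1 and Grm6, named after their values were seen, had log2 fold changes of 1.61, 1.68, 1.245 and 1.49. Of 9 tested vascular genes 8 were lower and 2 had an unadjusted p below 0.05, with sums of 146 to 299.7 and 119 to 177 CPM. The part of these cells in the results below was not tested.

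The comparison asked which lipid genes differ in microglia early in diabetes. None of the 34 tested genes passed an adjusted p of 0.05 over all genes in edgeR's quasi-likelihood test, where 0.0681% of all genes did. At an unadjusted p below 0.05 there were 7 (20.6%), close to the 18.9% of all genes. Of these, 5 were lower in diabetic libraries (Nsdhl, Mylip, Fasn, Scd2 and Fads1), against 10% of all genes, and 2 were higher (Srebf1 and Srebf2), against 8.94%. Only 1 gene, Scd2, had an adjusted p below 0.1, against 1.9% of all genes. For 2 genes, Scd2 and Fasn, the groups did not overlap, and both were lower in diabetic libraries, against 8.44% of all genes in either direction and 4.16% lower. Overlap was judged throughout on TMM-scaled CPM and depends on that scaling, as given below for Scd2 and Fasn. Of the 34 genes, 25 had a log2 fold change below 0 (73.5%, against 49.7% of all genes), with a median of -0.30 against 0.0017 for all genes. With upper-quartile factors, which moved the median of all genes to 0.077, 23 were below 0. By the DESeq2 Wald test 3 genes passed, Fasn, Nsdhl and Scd2, all lower, with 5.16% of all genes passing (2.73% lower), and by limma-voom 0 did, against 0.034% of all genes. The count of 7 was 4 without diabetic 2 and 4 without diabetic 4.

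**Figure D1:**
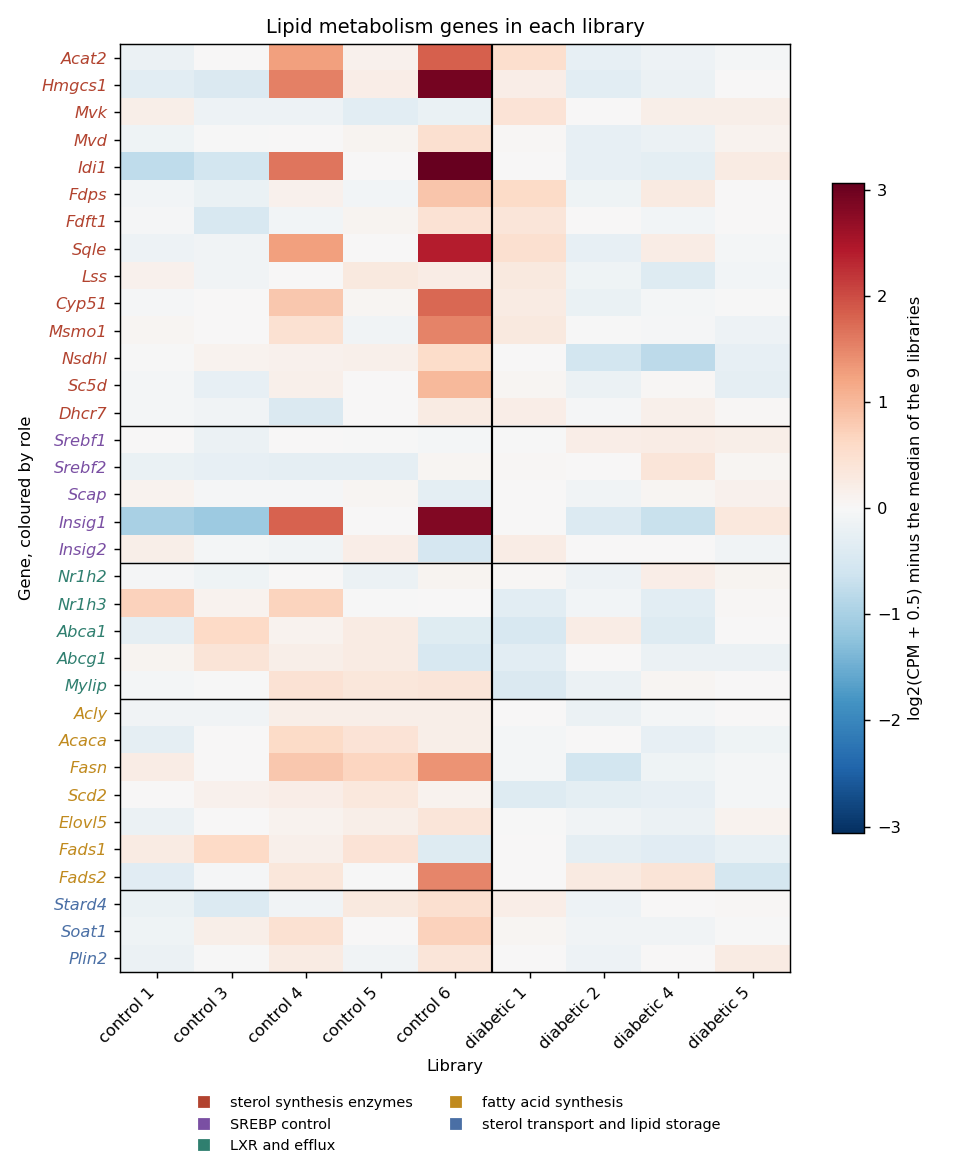
Heat map of the 34 tested genes (rows, grouped and coloured by role) in each library (columns), as log2(CPM + 0.5) minus the median of the 9 libraries. Several sterol synthesis genes and Insig1 are red in controls 4 and 6, and Scd2 is below its median in all 4 diabetic libraries.

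**Figure D2:**
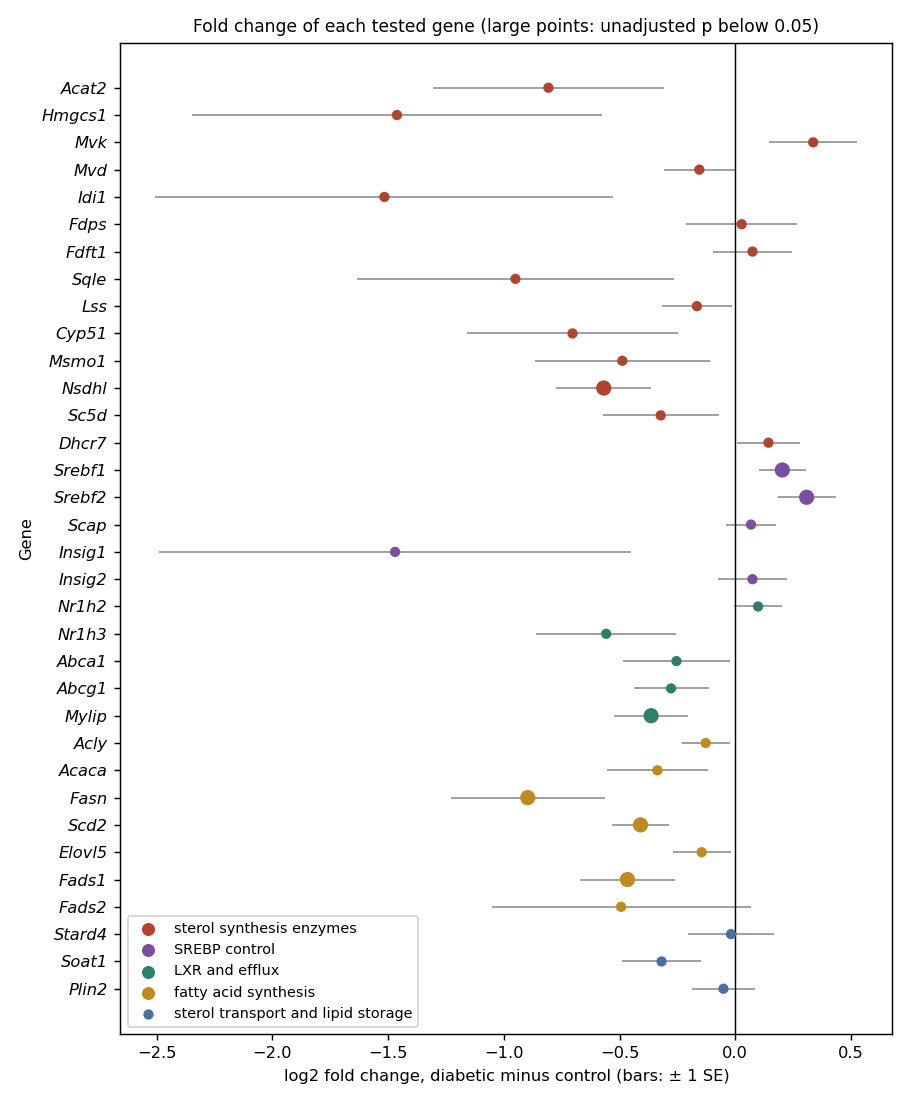
Log2 fold change of diabetic minus control for each of the 34 tested genes, with bars of 1 SE on either side and large points where the unadjusted p is below 0.05. The 7 large points have an SE of 0.10 to 0.33, while Hmgcs1, Idi1 and Insig1 have the longest bars.

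Fatty acid synthesis genes were lower in diabetic libraries for all 7 tested of the 9 listed, with a median log2 fold change of -0.41. Without controls 4 and 6 the median was -0.20, with 6 of the 7 lower. With all libraries, 3 of the 7 (42.9%) had an unadjusted p below 0.05 and none passed after adjustment in the quasi-likelihood test. Of all genes, 49.7% were lower, 18.9% had an unadjusted p below 0.05 and 10% were lower at that p. In bulk RNA, fewer cells of a type and less RNA per cell cannot be told apart.

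Scd2 encodes a stearoyl-CoA desaturase, which places the double bond that turns stearate into oleate. Its reference transcript spans chromosome 1, 264059374 to 264072433, on the plus strand of build Rnor6. Its normalised level was 964, 1055, 1107, 1209 and 1037 CPM in controls 1, 3, 4, 5 and 6, and 728, 781, 806 and 921 CPM in diabetic 1, 2, 4 and 5. On this scale every diabetic library lay below every control library, and controls 4 and 6 lay within the range of the other controls. The separation depends on the TMM factors, 0.839 in control 6 and 1.039 in diabetic 5. Control 6 had 8037 Scd2 counts of 9246211 in total and diabetic 5 had 9200 of 9629829. Without the factors control 6 lies below diabetic 5 and the groups overlap. On the log2 scale the difference was -0.41 (SE 0.12), the only one of the 34 with a quasi-likelihood adjusted p under 0.1, at 0.0895. It was -0.42 without controls 4 and 6 and -0.48 to -0.36 when 1 library was left out.

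Fasn encodes fatty acid synthase, the multi-domain enzyme that builds palmitate. It was at 69.6, 59.3, 106, 94.5 and 156 CPM in controls 1, 3, 4, 5 and 6, and at 56.7, 40.3, 54.1 and 57.0 CPM in diabetic 1, 2, 4 and 5. The groups did not overlap, but the gap was narrow, since control 3 lay just above diabetic 5 and control 6 lay far above both. This too depends on the TMM factors, 1.018 in control 3 and 1.072 in diabetic 1. Control 3 had 683 Fasn counts of 11332823 in total and diabetic 1 had 574 of 9452660. Without the factors diabetic 1 lies just above control 3. The Fasn difference on the log2 scale was -0.90 (SE 0.33, quasi-likelihood adjusted p = 0.129). It moved to -0.53 without controls 4 and 6 (quasi-likelihood adjusted p = 0.197), more than 1.5 times smaller. In the DESeq2 Wald test the adjusted p was 0.0161.

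Fads1 encodes the delta-5 desaturase of polyunsaturated fatty acid synthesis. It was at 34.1, 44.1, 32.2, 38.8 and 21.8 CPM in controls 1, 3, 4, 5 and 6, and at 28.7, 23.7, 22.5 and 24.2 CPM in the diabetic libraries in order of number. Control 6, the lowest library of all, was the reason the groups overlapped. Its log2 fold change was -0.47 (SE 0.21, quasi-likelihood adjusted p = 0.201) and -0.66 without controls 4 and 6 (quasi-likelihood adjusted p = 0.0914).

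The other fatty acid genes had overlapping groups. Acly, which makes cytosolic acetyl-CoA from citrate, was at 390.3, 391, 480.3, 479 and 478 CPM in controls 1, 3, 4, 5 and 6, and at 428, 374, 401 and 422 CPM in diabetic 1, 2, 4 and 5. Only diabetic 2 lay below all controls, and the other 3 diabetic libraries lay between the low and the high controls. Its log2 fold change was -0.13 (quasi-likelihood adjusted p = 0.477), or -0.058 without controls 4 and 6. Acaca, acetyl-CoA carboxylase, was at 7.18 to 13.4 CPM in control and 7.34 to 8.79 CPM in diabetic libraries, and its log2 fold change of -0.34 was -0.20 without controls 4 and 6. Elovl5, an elongase of polyunsaturated chains, was at 54.9 to 80.5 CPM in control and 54.9 to 67.2 CPM in diabetic libraries, at -0.15 on the log2 scale and -0.052 without those controls. Fads2, the delta-6 desaturase, rested on 6 to 31 counts per library and was at 4.00 CPM in control 6 against 0.601 to 1.59 CPM in the other 8 libraries. Its log2 fold change of -0.49 turned to 0.27 without controls 4 and 6.

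**Figure D3:**
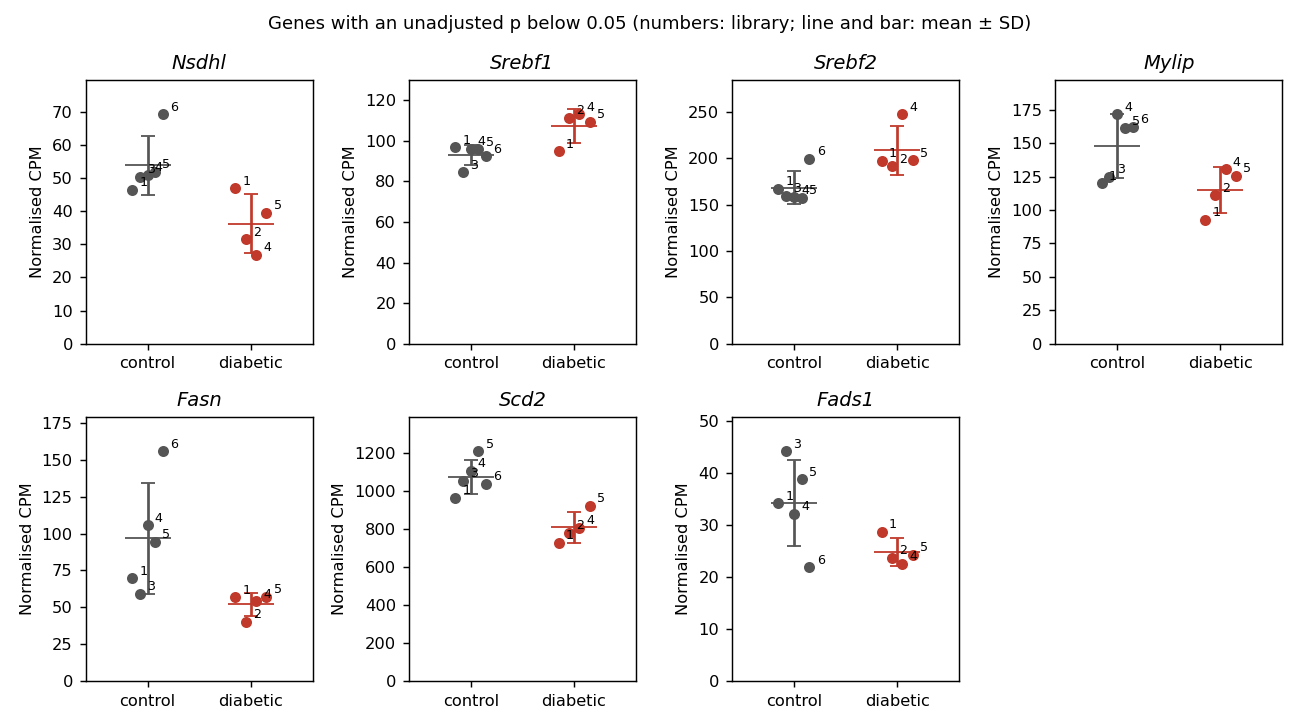
Normalised CPM of the 7 genes with an unadjusted p below 0.05 in each library, with the library number beside each point and the mean and SD of each group as line and bar. Only Scd2 and Fasn of these 7 show no overlap of the groups, and control 6 is the highest library for Nsdhl and Fasn and the lowest for Fads1.

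Several sterol synthesis genes differed more between control libraries than between the groups. All 14 enzymes listed were tested, and 10 were lower (71.4%, against 49.7% of all genes) and 4 higher in diabetic libraries. The median log2 fold change was -0.41, and 1 (Nsdhl) had an unadjusted p below 0.05 (7.14%, against 18.9% of all genes). Their quasi-likelihood adjusted p-values ran from 0.125 to 0.961. Summed over the 14 genes, the level was 1066, 1011, 1984, 1188 and 4294 CPM in controls 1, 3, 4, 5 and 6, and 1385, 1020.5, 1102 and 1119.8 CPM in diabetic 1, 2, 4 and 5. The diabetic libraries thus lay within the range of controls 1, 3, 4 and 5.

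Hmgcs1 encodes the cytosolic HMG-CoA synthase, which supplies the mevalonate pathway (chromosome 2, 52431601 to 52445055, plus strand, Rnor6). It was at 165, 152, 595, 237 and 1560.3 CPM in controls 1, 3, 4, 5 and 6, and at 235, 164, 182 and 205 CPM in diabetic 1, 2, 4 and 5. Controls 4 and 6 were the highest libraries, and the diabetic libraries lay among the other 3 controls. Its log2 fold change was -1.46 with an SE of 0.89 (quasi-likelihood adjusted p = 0.339), -0.55 without control 6 and 0.082 without controls 4 and 6.

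Idi1, the isopentenyl diphosphate isomerase (chromosome 17, 57976268 to 57984036, minus strand, Rnor6), was also highest in control 6 and next highest in control 4. It was at 37.8, 44.0, 201, 65.1 and 544 CPM in controls 1, 3, 4, 5 and 6, and at 52.5 to 77.3 CPM in diabetic libraries. Sqle, squalene epoxidase, a rate-limiting step of the sterol branch, was at 170 and 376 CPM in controls 4 and 6, 63.0 to 70.3 CPM in the other controls and 58.6 to 99.2 CPM in diabetic libraries. Cyp51, which removes a methyl group from lanosterol, was at 288 and 552 CPM in controls 4 and 6, 159 to 171 CPM in the other controls and 142 to 195 CPM in diabetic libraries. Msmo1, an oxidase that acts later on another pair of methyl groups, was at 202, 193, 267, 178 and 552 CPM in controls 1, 3, 4, 5 and 6, and at 239, 190.3, 189 and 174 CPM in diabetic 1, 2, 4 and 5. In each of these 4 genes control 6 was the highest library and control 4 the second highest, so that the fold changes of -1.52, -0.95, -0.70 and -0.49 on the log2 scale rested on 2 control libraries. Without them the values were 0.34, 0.21, -0.017 and 0.046.

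Nsdhl, a sterol dehydrogenase that acts after Msmo1 on those methyl groups (chromosome X, 152933069 to 152964390, plus strand, Rnor6), had another pattern. It was at 46.6, 50.4, 51.1, 52.1 and 69.4 CPM in controls 1, 3, 4, 5 and 6, and at 47.0, 31.6, 26.8 and 39.6 CPM in diabetic 1, 2, 4 and 5. Diabetic 1 lay just above control 1, and the other 3 diabetic libraries lay below all controls. Diabetic minus control, the difference was -0.57 on the log2 scale (SE 0.21, quasi-likelihood adjusted p = 0.125) and -0.46 without controls 4 and 6, and the DESeq2 Wald test gave an adjusted p of 0.0465.

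The remaining enzymes had no unadjusted p below 0.05. Acat2, a cytosolic thiolase at the start of the pathway, was at 19.3 and 29.2 CPM in controls 4 and 6 and at 6.44 to 11.5 CPM in the other 7 libraries, and its log2 fold change was -0.81, or 0.059 without controls 4 and 6. Sc5d, a late desaturase, was at 157 CPM in control 6 and 64.8 to 87.6 CPM in the other 8 libraries, and -0.32 on the log2 scale became 0.011 without controls 4 and 6. Mvk, mevalonate kinase, was at 7.07 to 10.2 CPM in control and 8.89 to 12.1 CPM in diabetic libraries, a difference of 0.34 on the log2 scale (quasi-likelihood adjusted p = 0.309). Fdps and Fdft1, which make farnesyl diphosphate and squalene, had log2 fold changes of 0.028 and 0.074, and both changed sign when 1 of several libraries was left out. Without controls 4 and 6 they were at 0.32 and 0.21. Mvd, mevalonate diphosphate decarboxylase, Lss, lanosterol synthase, and Dhcr7, the last reductase, had log2 fold changes of -0.16, -0.17 and 0.14, and of -0.038, -0.17 and 0.14 without controls 4 and 6.

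The genes that control SREBP gave 2 of the 7 low p-values, both higher in diabetic libraries. Srebf2 encodes SREBP-2 and was at 167, 160, 158, 157 and 199 CPM in controls 1, 3, 4, 5 and 6, and at 197, 191, 247 and 198 CPM in diabetic 1, 2, 4 and 5. All diabetic libraries lay above 4 of the controls, and control 6 lay above 3 diabetic libraries. The groups differed by 0.31 on the log2 scale (SE 0.13, quasi-likelihood adjusted p = 0.167) and 0.36 without controls 4 and 6. It was 0.21 without diabetic 4, the highest library, where the quasi-likelihood adjusted p was 0.415.

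Srebf1, which encodes SREBP-1 (chromosome 10, 46570996 to 46593009, minus strand, Rnor6), was at 96.9, 84.5, 96.0, 95.8 and 92.4 CPM in controls 1, 3, 4, 5 and 6, and at 94.8, 111, 113 and 109 CPM in diabetic 1, 2, 4 and 5. Diabetic 1 lay within the control range and the other 3 lay above it. The groups differed by 0.20 on the log2 scale (SE 0.10, quasi-likelihood adjusted p = 0.250). Counts per gene do not separate the SREBP-1a and SREBP-1c transcripts.

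Insig1, itself a target of SREBP, was at 35.6, 32.6, 250.3, 71.1 and 510.1 CPM in controls 1, 3, 4, 5 and 6, and at 72.1, 53.2, 44.2 and 89.4 CPM in diabetic 1, 2, 4 and 5. As for Hmgcs1 and Idi1, control 6 was the highest library and control 4 the next, and the diabetic libraries lay above controls 1 and 3. A log2 fold change of -1.47 (SE 1.02 and, in the quasi-likelihood test, adjusted p = 0.404) turned to 0.48 without controls 4 and 6 (quasi-likelihood adjusted p = 0.577). Insig2, its paralog, was lowest in control 6 at 29.0 CPM and at 38.4 to 48.5 CPM in the other 8 libraries. Scap was at 57.9 to 77.0 CPM in control and 66.5 to 79.2 CPM in diabetic libraries. Insig2 and Scap were at 0.074 and 0.068 on the log2 scale, and at -0.083 and -0.021 without controls 4 and 6.

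**Figure D4:**
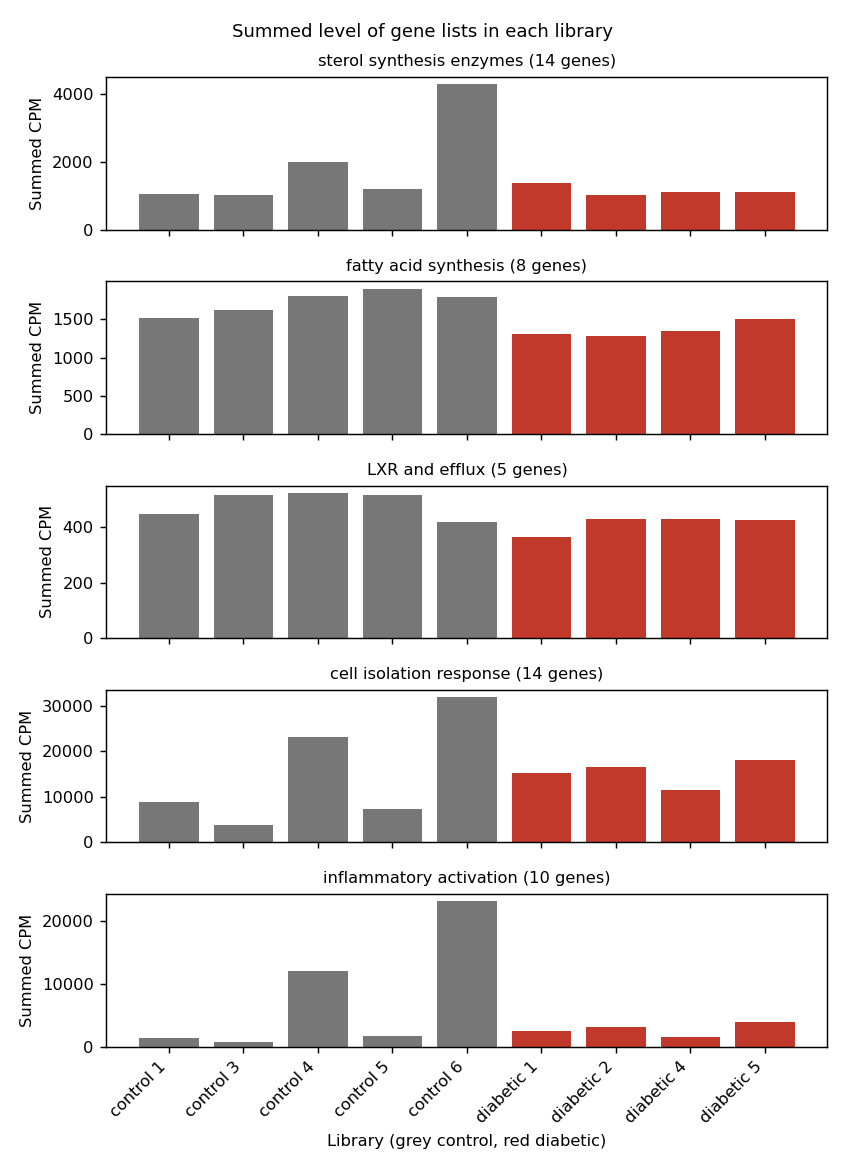
Summed CPM of 3 groups of lipid genes and of 2 lists of cell state in each library (grey control, red diabetic). Sterol synthesis is highest in controls 4 and 6, as are the cell isolation and inflammatory lists. On this TMM-scaled CPM the fatty acid synthesis sum is lower in all 4 diabetic libraries than in any control. Most of that sum is Scd2, with a mean of 1074 of 1728 CPM in control. For Acly, the next most abundant gene of that sum, the groups overlap.

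LXR and efflux genes were lower in diabetic libraries for 4 of 5 (80%, against 49.7% of all genes), with a median log2 fold change of -0.28. There was 1 unadjusted p below 0.05 (20%, against 18.9% of all genes). Mylip encodes a ubiquitin ligase induced by LXR (chromosome 17, 19682040 to 19703681, minus strand, Rnor6). It was at 120, 125, 172, 161 and 162 CPM in controls 1, 3, 4, 5 and 6, and at 92.8, 111, 130.4 and 126 CPM in diabetic 1, 2, 4 and 5. Diabetic 4 and 5 lay above controls 1 and 3, so the groups overlapped. Mylip differed by -0.36 on the log2 scale (SE 0.16, quasi-likelihood adjusted p = 0.195) and -0.24 without controls 4 and 6.

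Abcg1, a transporter that exports cholesterol to high-density lipoprotein (chromosome 20, 9743269 to 9840489, plus strand, Rnor6), was at 224, 276, 239, 249.6 and 151 CPM in controls 1, 3, 4, 5 and 6, and at 169, 211, 187 and 185 CPM in diabetic 1, 2, 4 and 5. Control 6 was the lowest library, and the other 4 controls lay above every diabetic library. Its log2 fold change was -0.28 (SE 0.16, quasi-likelihood adjusted p = 0.321), and without controls 4 and 6 it was -0.42 with an unadjusted p of 0.00207 and a quasi-likelihood adjusted p of 0.145. Abca1, the transporter that loads apolipoprotein A-I, was at 21.3 to 42.9 CPM in control and 19.5 to 32.4 CPM in diabetic libraries, at -0.25 on the log2 scale and -0.40 without controls 4 and 6. Nr1h3, the gene of LXR-alpha, rested on 17 to 63 counts and was at 3.43 to 5.95 CPM in control and 2.67 to 3.60 CPM in diabetic libraries, where the difference was -0.56 on the log2 scale (quasi-likelihood adjusted p = 0.292). Nr1h2, the gene of LXR-beta, was at 68.4 to 81.6 CPM in control and 69.7 to 89.0 CPM in diabetic libraries, at 0.099 and, without those controls, 0.15 on the log2 scale.

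Genes of sterol transport and storage showed no unadjusted p below 0.05. Soat1, which esterifies cholesterol for storage (chromosome 13, 74035080 to 74077783, minus strand, Rnor6), was at 97.9, 121, 147, 107 and 176 CPM in controls 1, 3, 4, 5 and 6, and at 111, 99.0, 99.8 and 106 CPM in the diabetic libraries in order of number. Controls 4 and 6 were again the highest, and the log2 fold change of -0.32 (quasi-likelihood adjusted p = 0.286) was -0.071 without them. Plin2, which coats lipid droplets, was at 62.2, 69.4, 84.0, 65.9 and 91.9 CPM in controls 1, 3, 4, 5 and 6, and at 70.9, 63.0, 70.5 and 83.7 CPM in diabetic 1, 2, 4 and 5. Its groups overlapped, with a log2 fold change of -0.051. Stard4, a cytosolic sterol carrier, was at 19.02 to 36.01 CPM in control and 22.8 to 29.5 CPM in diabetic libraries, and its log2 fold change was -0.019. The signs of Plin2 and Stard4 turned without controls 4 and 6 (0.12 and 0.10), and also with upper-quartile factors and without normalization factors.

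**Figure D5:**
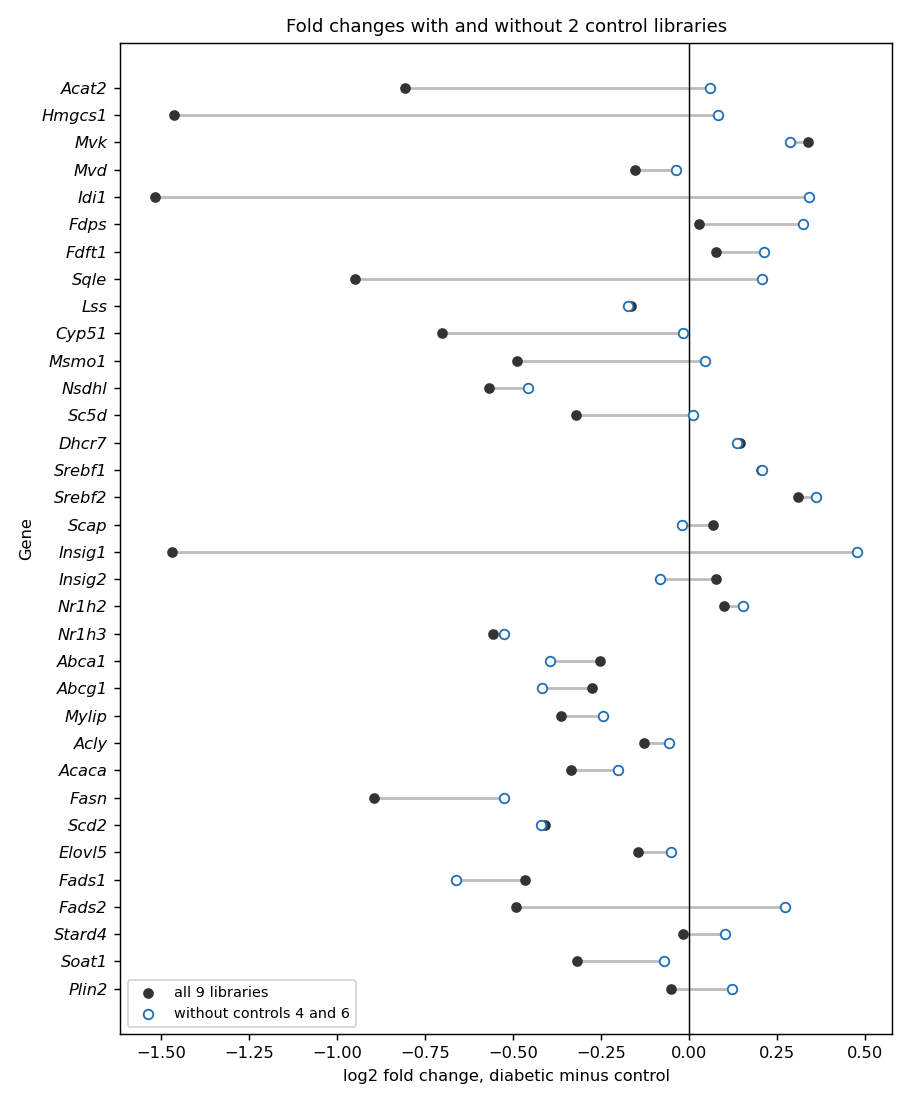
Log2 fold change of diabetic minus control for the 34 tested genes with all 9 libraries (filled) and without controls 4 and 6 (open). Insig1, Idi1, Hmgcs1 and Sqle move from well below 0 to above 0, while Scd2, Nsdhl, Srebf1 and Srebf2 stay near their values.

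Without controls 4 and 6, 17 of the 34 genes were below 0, against 50.6% of all genes, with a median log2 fold change of -0.003, against 25 and -0.30 with all libraries. Of the 14 sterol synthesis enzymes 10 were then higher and 4 lower. Of the 7 fatty acid synthesis genes 6 were lower, 3 of them at an unadjusted p below 0.05. In this fit 6 of the 34 genes had an unadjusted p below 0.05, against 14.9% of all genes. Srebf2 was higher, and Nsdhl, Abcg1, Fasn, Scd2 and Fads1 were lower. None passed an adjusted p of 0.05 in the quasi-likelihood test, and 0% of all genes did. The controls left in this fit all had a lower cell isolation sum than any diabetic library. With the mean level of the cell isolation list as a covariate, Fasn, Nsdhl and Scd2 passed, all lower (quasi-likelihood adjusted p = 0.00777, 0.0287 and 0.0211). In that fit 10.2% of all genes passed (6.29% lower), and the log2 fold change of Hmgcs1 was -1.06.

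The other genes of lipid metabolism, 56 genes in 6 lists, gave 48 tested genes. Of these, 0 passed an adjusted p of 0.05 in the quasi-likelihood test and 10 (20.8%) had an unadjusted p below 0.05, close to the 18.9% of all genes. The groups did not overlap for 7 of the 48 (14.6%, 6 lower and 1 higher), against 8.44% of all genes (4.16% lower). Ch25h, which makes the oxysterol 25-hydroxycholesterol, was at 1176 and 1891 CPM in controls 4 and 6, 437 to 526 CPM in the other controls and 536 to 1012 CPM in diabetic libraries. Among 8 tested genes of sterol synthesis outside the 36, none had an unadjusted p below 0.05.

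Genes of fatty acid oxidation were lower for 8 of 9 tested (88.9%, against 49.7% of all genes). Of these, 3 had an unadjusted p below 0.05, or 33.3% of the 9 against 18.9% of all genes. For those 3 the groups did not overlap, against 8.44% of all genes in either direction and 4.16% lower. Hadhb, a subunit of the mitochondrial trifunctional protein, was at 145 to 177 CPM in control and 120.4 to 129.9 CPM in diabetic libraries, a difference of -0.37 on the log2 scale (quasi-likelihood adjusted p = 0.0991). Acadm, the medium-chain acyl-CoA dehydrogenase, was at 159 to 193 and 141 to 154 CPM, a difference of -0.24 on the log2 scale (quasi-likelihood adjusted p = 0.173).

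Acsl4 and Acsl1, ligases that activate long-chain fatty acids, did not overlap either. Acsl4 was at 52.5, 52.9, 105, 69.2 and 133 CPM in controls 1, 3, 4, 5 and 6, and at 37.2 to 49.1 CPM in diabetic libraries, and its log2 fold change was -0.92, or -0.43 without controls 4 and 6. Acsl1 was at 61.4 to 69.9 and 52.0 to 56.9 CPM. Lipa, the lysosomal acid lipase, was at 719 to 871 CPM in control and 631 to 705 CPM in diabetic libraries, again without overlap, and Osbp, an oxysterol-binding transfer protein, had a log2 fold change of -0.25 with overlap. The genes higher in diabetic libraries were Abca7, a lipid transporter, at 19.9 to 28.6 and 23.7 to 38.4 CPM, Smpdl3a, an LXR target, at 20.8 to 37.0 and 33.1 to 44.2 CPM, and G0s2, an inhibitor of adipose triglyceride lipase. G0s2 had 36, 34, 2, 10 and 8 counts in controls 1, 3, 4, 5 and 6, and 211, 102, 95 and 104 counts in diabetic 1, 2, 4 and 5. No diabetic library overlapped a control for G0s2, and its log2 fold change was 2.99 (SE 0.81, quasi-likelihood adjusted p = 0.0711). S100a8 and S100a9 of the blood and border myeloid list did not overlap either, at log2 fold changes of 4.21 and 3.61. Lyz2 of that list was at 0.011. S100a9 had 59, 52, 5, 2 and 6 counts in controls 1, 3, 4, 5 and 6, and 375, 145, 332 and 149 in diabetic 1, 2, 4 and 5. Whether the G0s2 counts came from such cells was not tested.

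The authors' deposited table listed 1 of the 34 genes at an adjusted p below 0.05, against 2.1% of its 12069 genes (0.182% lower). Its log2 fold changes were close to those of the fit without normalization factors. Scd2 was at -0.2963 there and -0.2962 in that fit, and Srebf2 at 0.4283 and 0.4285. In that fit the median over all genes was 0.12, against 0.0017 in the main fit. That gene was Fasn, at -0.75 on the log2 scale (adjusted p = 0.0398) in the authors' deposited table. For Scd2 the authors' deposited table gave -0.30 on the log2 scale (adjusted p = 0.578), and for Hmgcs1 it gave -1.24 (adjusted p = 0.166). Srebf2 stood at 0.43 on the log2 scale (adjusted p = 0.162) in the authors' deposited table. Among the other lipid genes, Acsl4 (-0.76, adjusted p = 0.0479) and G0s2 (3.08, adjusted p = 2.98e-06) passed in the authors' deposited table, which was made from the same libraries.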

How the data were processed

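RNA of CD11b-positive retinal cells was amplified with a SmartSeq kit and sequenced from Nextera XT libraries, per the labels' protocols. The authors deposited raw counts per gene symbol for 9 libraries. TopHat2 2.0.14, StringTie 1.2.4, edgeR and the build Rnor_6.0 are named in the submitters' processing notes, without roles, and which program counted reads, and whether by strand, is not given in the sources used here, so overlapping, antisense or near-identical genes can share or lose reads. A second table deposited by the authors holds their log2 fold changes, p-values and adjusted p-values. Transcript assemblies, made with StringTie 1.2.4 per the file headers, served only for the positions of reference transcripts on Rnor6, which can be shorter than the gene.

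Counts were filtered with filterByExpr (minimum count 10, minimum total 15), scaled by TMM and tested with the quasi-likelihood F test of edgeR 4.0.16 (robust, no covariates) in R 4.3.3, with Benjamini-Hochberg adjustment over all genes and a threshold of 0.05. Each SE was derived from the fold change and its p-value, as the size over the matching normal quantile. The procedure was tested on simulated data. No 2 libraries were alike within counting noise (lowest chi-square per degree of freedom 11.7 over 36 pairs), and no column of other samples was present. DESeq2 1.42.0, limma-voom (limma 3.58.1), other scaling factors, no filter, a cell isolation covariate, the replicate block and fits without libraries were alternatives. The members and lists were chosen with earlier results of these data known. Values in every library are given for those of the 36 genes with an unadjusted p below 0.05 or groups that do not overlap and for the 2 most abundant genes of each role, and genes of the other lipid lists are named by the same p or overlap, with Ch25h chosen after its values were seen. Some genes that meet this rule are not reported here. Marker lists for photoreceptors, inner retinal neurons and vascular cells were also summed.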

Additional observations from a re-analysis of the deposited data

Results flagged for a closer look

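In groups of 4 or 5 libraries, 11 of 98 sets of values held a library whose gap to the nearest other one was an unusually large part of the range. The usual rate of about 1 in 20 is for independent sets. These sets are related genes and sums in the same 9 libraries, so 11 of 98 cannot be set against that rate. Control 6 was the highest control for Mvd (47.2 CPM, next 35.1), Fdps (145 CPM, next 87.9), Msmo1 (552 CPM, next 267), Nsdhl (69.4 CPM, next 52.1), Sc5d (157 CPM, next 87.6), Srebf2 (199 CPM, next 167) and Fads2 (4.00 CPM, next 1.51). Control 1 was the highest control for Mvk (10.2 CPM, next 7.96), and control 5 for Abca7 (28.6 CPM, next 21.97). Diabetic 4 was the highest diabetic library for Srebf2 (247 CPM, next 198), and diabetic 1 had the lowest sum over the 5 LXR and efflux genes (363 CPM, next 424).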

How the results depend on the processing

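The count of all genes past the threshold was 8, and it was 31 with upper-quartile factors, 29 without normalization factors, 42 without a filter, 598 by the DESeq2 Wald test, 4 by limma-voom, 0 with the replicate block, 1199 with the cell isolation covariate, 0 without controls 4 and 6, and 0 to 75 when 1 library was left out. The count of lipid genes was 0 and became 3 by the DESeq2 Wald test and 3 with the cell isolation covariate. Most of the summed CPM of the fatty acid synthesis genes came from Scd2. The log2 difference of this sum was -0.342 and moved to -0.222 without normalization factors, where the median over all tested genes was 0.12. The log2 fold change changed sign for Stard4 by limma-voom (0.038), without normalization factors (0.11) and with upper-quartile factors (0.063), and for Plin2 in the last 2 settings (0.079 and 0.030). With the replicate block it changed sign for Mvd (0.020), Insig2 (-0.050), Stard4 (0.091) and Plin2 (0.095). Without controls 4 and 6 it changed sign for Acat2 (0.059), Hmgcs1 (0.082), Idi1 (0.34), Sqle (0.21), Msmo1 (0.046), Sc5d (0.011), Scap (-0.021), Insig1 (0.48), Insig2 (-0.083), Fads2 (0.27), Stard4 (0.10) and Plin2 (0.12). Leaving out 1 library gave ranges across 0 for Fads2 (-0.68 to 0.090), Fdft1 (-0.038 to 0.21), Fdps (-0.13 to 0.26), Insig2 (-0.022 to 0.14), Plin2 (-0.13 to 0.034) and Stard4 (-0.12 to 0.12). The causes were not tested. Scd2, Fasn, Nsdhl, Fads1, Mylip, Srebf1 and Srebf2 kept their direction under all 18 alternatives. Genes without an unadjusted p below 0.05 in the main fit did so too, among them Mvk, Lss, Cyp51, Dhcr7, Nr1h2, Acly and Elovl5. A kept direction over refits of the same libraries therefore does not set the genes with a low p apart. The numbers 1, 4 and 5 occur in both groups, but deviations of same-numbered libraries correlated at 0.201, -0.114 and 0.016 over genes, and 1 of 3 controls correlated best with its own number, so the numbers were not taken as pairs. With 6 to 31 counts of Fads2 and 17 to 63 of Nr1h3 per library, small differences in these 2 genes were not detectable at this depth.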
